A study of Mus musculus with 14 samples.

Results

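The subject is the set of cytosolic ribosomal protein genes, the genes for the proteins that build the large (Rpl and Rplp) and the small (Rps) subunit of the ribosome. Members were all measured genes whose single symbol in the array annotation starts with Rpl or Rps and names a cytosolic ribosomal protein. Kinases of ribosomal protein S6, pseudogenes, paralogs with like names and the retrocopy Rpl37rt were left out. This gave 58 of 6288 measured named genes, 36 of the large and 22 of the small subunit, read by 100 spots. All 58 had enough values to be tested. A further 9 genes (Rpl3, Rpl12, Rpl14, Rpl22, Rpl26, Rps3, Rps12, Rps16 and Rps27) were read only by probes annotated to several genes and were not analysed here.

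RNA was taken from the spleens of AcB61 mice (8 arrays) and AcB55 mice (6 arrays), and each sample was hybridised to a cDNA array together with spleen RNA of A/J mice. AcB61 and AcB55 come from 1 panel of recombinant congenic mice, in which pieces of the C57BL/6 genome were bred into A/J, so both share most of their genome with A/J. The series is titled with malaria resistance. The labels do not give age, sex or infection, nor which arrays share a mouse, so each array counted as a replicate, and the spread behind a p-value may be technical. Each array gave 14197 to 14588 values.

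Each value is the ratio of strain to A/J signal, read here as log2 because the sources do not give the base. A ratio of 0 means equal signal, and a positive one was read as higher in the strain, which is likely because the labels name the strain first and A/J second on every array, although they mention a dye swap and do not give the dyes of an array. Only ratios were available, so the labelled tissue could not be checked against levels of its markers. No array set A/J against A/J, so tests against 0 do not include how much A/J mice vary. The number of arrays limits the precision of every value.

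A ribosome carries one copy of nearly every ribosomal protein, and cells make these proteins in matched amounts. Their mRNAs start with a run of pyrimidines, the TOP motif, through which the kinase complex mTORC1 and the RNA-binding protein Larp1 control their translation together. Ribosomal protein mRNAs are abundant in cells that grow and divide. Red cell precursors, which fill the spleen of mice with a high turnover of red cells, depend strongly on ribosome supply: in humans, mutations in single copies of several of these genes cause Diamond-Blackfan anaemia.

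The start sites of 5 members from the low and the high end of the AcB55 ratios are shown, since the TOP run lies there. Each line gives 40 bases before and 20 bases from the transcript start listed by RefSeq (GRCm38.p6), 5′ to 3′ on the gene's strand, with the longest pyrimidine run that lies within 20 bases of the start in capitals.
Rpl38: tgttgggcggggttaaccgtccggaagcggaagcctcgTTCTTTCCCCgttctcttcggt (chr11:114668540-114668599, plus strand)
Rps13: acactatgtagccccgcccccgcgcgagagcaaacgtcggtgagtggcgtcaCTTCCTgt (chr7:116334171-116334230, minus strand)
Rpl13a: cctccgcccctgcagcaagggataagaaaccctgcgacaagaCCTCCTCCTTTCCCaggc (chr7:45128726-45128785, minus strand)
Rpl9: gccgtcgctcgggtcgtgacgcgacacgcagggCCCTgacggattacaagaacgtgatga (chr5:65391412-65391471, minus strand)
Rps2: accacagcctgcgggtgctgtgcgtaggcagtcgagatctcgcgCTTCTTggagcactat (chr17:24720023-24720082, plus strand)
The first 3 genes had AcB55 ratios among the lowest of the members, and Rpl9 and Rps2 had the highest. The run was 10 bases long in Rpl38, 6 in Rps13, 14 in Rpl13a, 4 in Rpl9 and 6 in Rps2.

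Of the 58 members, 45 matched a RefSeq promoter. A pyrimidine run of at least 7 bases within 20 bases either side of the start was found in 29 of 45 (64.4%), against 27.5% of 27018 genes. On either strand of the window from 250 bases before to 50 bases after the start, the letters CCGGAAG, the core of the site of ETS factors, were found in 21 of 45 (46.7%, against 9.93% of all genes). GGGCGG, the GC box, was found in 29 (64.4%, against 38.2%), TATAAA in 5 (11.1%, against 15.7%) and the YY1 letters AAGATGGC in 3 (6.67%, against 3.19%). The median AcB55 ratio was -0.29 for the 29 members with a run and -0.30 for the 16 without.

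In AcB61 the ribosomal protein genes stood near A/J as a group, and in AcB55 most of them were lower than in A/J. The median ratio over the 58 members was -0.021 in AcB61 and -0.33 in AcB55 on the log2 scale, against -0.00067 and -0.0020 over all 13045 features tested. On the linear scale these medians correspond to 0.985 and 0.796 of the A/J signal. Rpl38, Rps13 and Rps20 were the lowest members in AcB55. The strains were compared with limma fitted to all 13045 features, and a gene was called at an adjusted p under 0.05 (Benjamini and Hochberg, two-sided). In AcB61, 1 of 58 members was lower (Rpl5), 2 were higher (Rps2 and Rplp0) and 55 were not called, where 13.3% of all features were called lower and 10.5% higher. In AcB55, 38 of 58 were lower, 0 were higher and 20 were not called, where 10.9% of all features were called lower and 9.77% higher. At an unadjusted p under 0.05 in limma, 4 members were lower and 4 higher in AcB61, and 45 were lower and 1 higher (Rpl9) in AcB55. Over all features, 19.0% were lower and 15.3% higher in AcB61 at that threshold, and 16.5% and 15.0% in AcB55. RNA of a whole organ cannot tell fewer cells of a type from less RNA per cell.

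Between the strains, 27 of 58 members were higher in AcB61 than in AcB55, 0 were lower and 31 were not called, where 5.29% of all features were called higher and 6.98% lower. At an unadjusted p under 0.05, 47 were higher and 1 (Rpl9) was lower in AcB61, where 13.0% and 14.8% of all features were. The difference of the means was above 0 in 56 of 58 members, with a median of 0.29 on the log2 scale, against 0.012 over all features. Both strains were set against A/J, so the 2 tests against 0 share their A/J channel. The count between strains fell to 13, 13, 13 and 11 without AcB55 array 3, 4, 5 or 6 and to 14 without AcB61 array 1. The share of all features called higher in AcB61 fell too, to 3.83%, 3.21%, 2.89% and 2.55% and to 3.33%, in the same order. Without AcB55 arrays 3 and 4, whose titles carry the letter b, 24 members were lower in AcB55 (8.39% of all features) and 6 differed between the strains (2.25%), while the medians were -0.29 and 0.28.

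**Figure D1:**
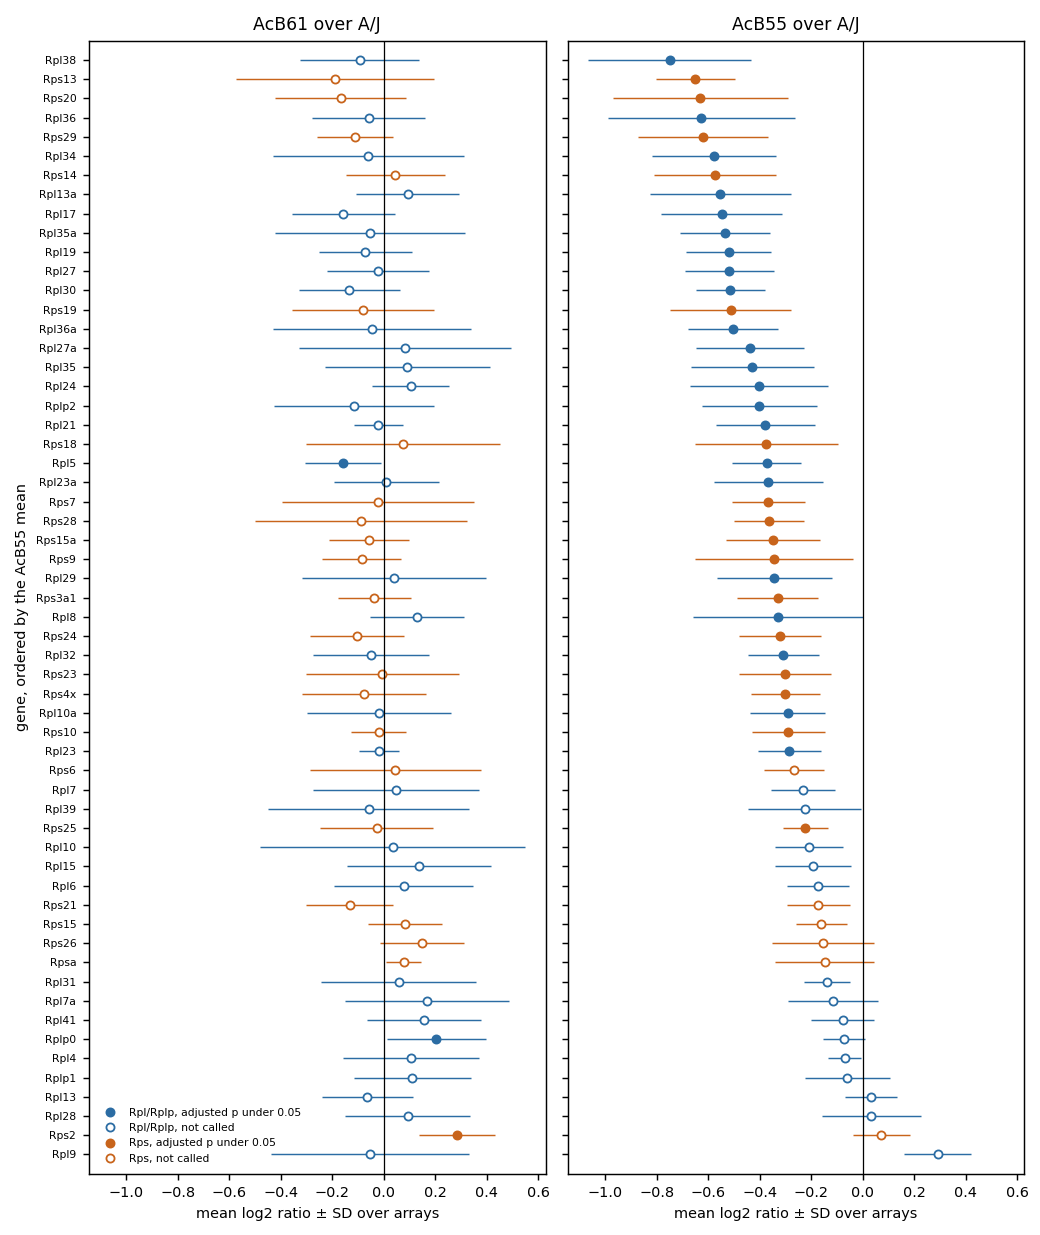
Mean log2 ratio to A/J of each of the 58 genes with the SD over arrays as a bar, in AcB61 (left, 8 arrays) and AcB55 (right, 6 arrays), ordered by the AcB55 mean. Blue marks Rpl and Rplp, orange marks Rps, and filled points have an adjusted p under 0.05. Of the 58 points, 54 lie below 0 in AcB55, and those of AcB61 lie on both sides of 0.

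Most members of both subunits were lower in AcB55. Of the 36 Rpl and Rplp genes, 1 was lower and 1 higher in AcB61, and 22 were lower in AcB55, with medians of -0.0047 and -0.34. Of the 22 Rps genes, 1 was higher in AcB61 and the others were not called, and 16 were lower in AcB55, with medians of -0.033 and -0.32. Over all features, 13.3% were called lower and 10.5% higher in AcB61, and 10.9% and 9.77% in AcB55. At an unadjusted p under 0.05 in limma, 1 Rps gene was lower and 2 higher in AcB61, against 19.0% and 15.3% of all features. Between the strains, 17 of 36 large-subunit and 10 of 22 small-subunit genes were higher in AcB61. These counts were lower without single arrays. The share of all features called higher in AcB61 was 5.29% with all arrays and 2.55% to 5.32% without the single arrays named next. The large-subunit count was 11 without AcB61 array 1 and 10, 11, 11 and 9 without AcB55 array 3, 4, 5 or 6. The small-subunit count was 3, 6, 5 and 6 without AcB61 array 1, 3, 4 or 7, and 5, 3, 2, 2 and 2 without AcB55 array 1, 3, 4, 5 or 6.

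The subunits were also set side by side on each array, over the 33 large-subunit and 20 small-subunit genes with a value on all 14 arrays. The large-subunit median lay between -0.12 and 0.11 on the 8 AcB61 arrays and between -0.40 and -0.077 on the 6 AcB55 arrays. The small-subunit median lay between -0.17 and 0.059 in AcB61 and between -0.42 and -0.11 in AcB55. Large minus small, as a difference of medians, was 0.020 ± 0.058 in AcB61 (SD, n = 8 arrays) and 0.011 ± 0.060 in AcB55 (n = 6), so the gap between subunits was smaller than its spread over arrays in both strains. As a difference of means it was 0.049 ± 0.032 in AcB61, above 0 on all 8 arrays, and 0.043 ± 0.062 in AcB55. No test was made of this gap because the members were chosen with results known.

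**Figure D2:**
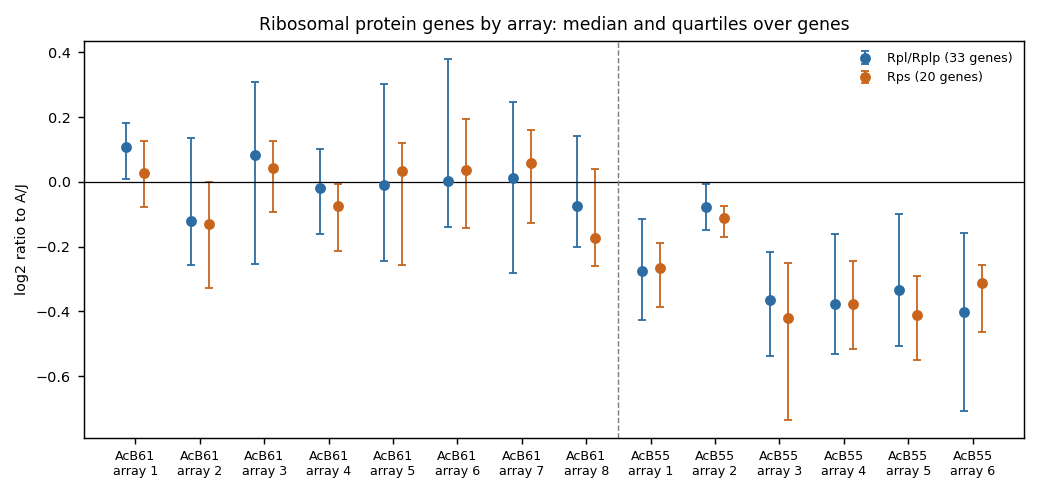
Median log2 ratio to A/J with quartiles over 33 large-subunit genes (blue) and 20 small-subunit genes (orange) on each array, the 8 AcB61 arrays on the left and the 6 AcB55 arrays on the right. Both subunits lie around 0 on the AcB61 arrays and below 0 on every AcB55 array, least so on array 2.

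AcB55 array 2 was nearest to A/J, with medians of -0.077 for the large and -0.11 for the small subunit. The mean of 4 granulocyte markers was also far from that of the other arrays there and on array 1, at 1.31 and 1.05 against -0.045 to 0.15 on AcB55 arrays 3 to 6. Without AcB55 arrays 1 and 2, 36 members were lower in AcB55 (8.02% of all features) and the median was -0.39. Over 58 members, 43 were below 0 on every AcB55 array (13.2% of all features), 24 of the large and 19 of the small subunit. In AcB61, 56 of 58 had both signs among the arrays, Rps2 and Rpsa were above 0 on every array with a value (6.52% of all features), and 0 were below 0 on every array (7.69%). The Rpsa value averages 6 spots of 3 clones (different cDNAs of the gene), and its first 2 clones ran opposite ways in AcB61 (r = -0.96). The first clone had an SD of 0.42 over the AcB61 arrays and the average 0.068, so the sign of Rpsa there rests on averaging. Rpl9 was the one member above 0 on every AcB55 array.

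Among large-subunit genes, the 26 away from the exit tunnel and the stalk had AcB55 ratios from -0.75 to 0.29. Their AcB55 median was -0.34, against -0.37 for 7 exit tunnel genes and -0.074 for 3 stalk genes. Of these 26 genes, 17 were lower in AcB55 and 12 were higher in AcB61 than in AcB55, against 10.9% and 5.29% of all features. The grouping of members by place in the ribosome was made after their values were seen, and no group was set against another by a test.

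Rpl38, which in mice is needed for the translation of Hox mRNAs and for the pattern of the skeleton, had the lowest mean in AcB55. Its lowest, median and highest log2 ratios were -0.33, -0.16 and 0.31 on the AcB61 arrays, against -0.98, -0.85 and -0.15 on the AcB55 arrays. AcB55 array 2 lay within the AcB61 range, and the other AcB55 arrays lay below every AcB61 array. The mean was -0.095 ± 0.23 in AcB61 and -0.75 ± 0.32 in AcB55 (SD, n = 8 and 6), where the AcB55 mean corresponds to 0.595 of the A/J signal on the linear scale. The adjusted p was 2.98e-05 in AcB55, and the strains differed by 0.65 (SE 0.13, adjusted p = 0.00457) in limma. Its 2 clones, different cDNAs of the gene on the array, had AcB55 means of -0.73 and -0.77.

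Rpl13a, which in human monocytes leaves the ribosome after interferon-gamma and silences inflammatory mRNAs, was 1 of only 2 members whose strains did not overlap on any array. Its ratios were -0.14, 0.074 and 0.40 on the AcB61 arrays (lowest, median, highest), against -0.98, -0.48 and -0.28 on the AcB55 arrays. The other such member was Rps14, and 1.11% of all features showed every AcB61 array above every AcB55 array. The reverse, every AcB61 array below every AcB55 array, held for 0 members and 1.56% of all features. For Rpl13a the mean was 0.093 ± 0.20 in AcB61 and -0.55 ± 0.27 in AcB55, and the limma difference was 0.65 (SE 0.12, adjusted p = 0.00245).

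Rpl36 and Rpl34 are structural proteins of the large subunit. Rpl36 had ratios of -0.33, -0.0027 and 0.19 in AcB61 and -1.04, -0.59 and -0.11 in AcB55 (lowest, median, highest), with AcB55 array 2 alone inside the AcB61 range. Its limma difference was 0.57 (SE 0.14, adjusted p = 0.0135), and the adjusted p was 0.0851 without the 2 arrays marked b (0.00141 to 0.0851 over the alternatives). Rpl34 had ratios of -0.49, -0.081 and 0.42 in AcB61 and -1.0, -0.54 and -0.26 in AcB55, and the groups overlapped. The AcB61 arrays of Rpl34 split widely, with 4 arrays above and 4 below 0. Its limma difference was 0.52 (SE 0.15, adjusted p = 0.0354), and that call was lost without any 1 of AcB61 arrays 1, 2, 6 and 8 or AcB55 arrays 3 to 6 (adjusted p 0.0536 to 0.102).

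Rpl5 carries the 5S rRNA into the large subunit and, when free, binds and inhibits Mdm2. It was the one member lower than A/J in both strains. Its ratios were -0.38, -0.18 and 0.092 in AcB61, against -0.51, -0.37 and -0.13 in AcB55 (lowest, median, highest). The groups overlapped, with means of -0.16 ± 0.15 in AcB61 (adjusted p = 0.0353, limma) and -0.37 ± 0.13 in AcB55 (adjusted p = 0.000243). The AcB61 call was lost without any 1 of 6 AcB61 arrays: without array 1, 2, 4, 5, 7 or 8 the adjusted p was 0.0555, 0.0831, 0.0673, 0.0739, 0.0686 or 0.108 (0.0124 to 0.108 over the alternatives).

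Several further large-subunit genes differed between the strains. Rpl27, a structural protein of the large subunit, had -0.023 ± 0.20 in AcB61 and -0.52 ± 0.17 in AcB55, with a limma difference of 0.49 (SE 0.097, adjusted p = 0.00439). Rpl24, at the bridge between the subunits, had 0.10 ± 0.15 in AcB61 and -0.40 ± 0.27 in AcB55 and a difference of 0.51 (SE 0.10, adjusted p = 0.00586). Rpl21 and Rpl23, also structural proteins of the large subunit, had the smallest SDs over the AcB61 arrays among the large-subunit members, at -0.022 ± 0.096 and -0.018 ± 0.078, against -0.38 ± 0.19 and -0.28 ± 0.12 in AcB55, and differed by 0.36 (SE 0.081, adjusted p = 0.00988) and 0.27 (SE 0.067, adjusted p = 0.0165). The Rpl23 value averages 3 clones, of which the second and the third ran opposite ways over the AcB61 arrays (r = -0.86). These 4 genes were chosen for description after their values were seen.

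Around the exit tunnel, through which the new protein leaves, 4 of 7 genes were lower in AcB55 (Rpl17, Rpl19, Rpl23a and Rpl35), and the same 4 differed between the strains. Of all 58 members, 38 were lower in AcB55 and 27 were higher in AcB61 than in AcB55. Over all features these shares were 10.9% and 5.29%. Rpl23a, the docking site of factors that meet the new chain, was the large-subunit member nearest to A/J in AcB61. Its ratios were -0.25, 0.015 and 0.28 in AcB61 and -0.53, -0.43 and 0.050 in AcB55 (lowest, median, highest), with AcB55 array 2 above 0 and the other AcB55 arrays below every AcB61 array. Its limma difference was 0.37 (SE 0.10, adjusted p = 0.0275), and that call was lost without AcB61 array 1 or any 1 of AcB55 arrays 3 to 6 (adjusted p 0.0503 to 0.0691). Rpl39, Rpl31 and Rpl4 had AcB55 means of -0.23 ± 0.22, -0.14 ± 0.089 and -0.070 ± 0.063 and were not called.

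The stalk recruits the elongation factors, and its 3 genes are given singly. Rplp0, the base of the stalk, was higher than A/J in AcB61 at 0.20 ± 0.19 (adjusted p = 0.0131, limma), with ratios of -0.12, 0.24 and 0.50 there and -0.16, -0.093 and 0.081 in AcB55 (lowest, median, highest). The groups overlapped, and the difference of 0.28 (SE 0.086, adjusted p = 0.0434) lost its call without any 1 of AcB61 arrays 1, 3, 4, 5 and 7 or AcB55 arrays 2 to 6 (adjusted p 0.0583 to 0.0914). Rplp1 and Rplp2, the acidic proteins bound to it, had means of 0.11 ± 0.23 and -0.12 ± 0.31 in AcB61 and of -0.060 ± 0.16 and -0.40 ± 0.22 in AcB55, where Rplp2 was lower (adjusted p = 0.00743). Rplp0, and likewise Rpl9, Rpl10, Rps10 and Rps15 below, were chosen for description after their values were seen.

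At the other end lay Rpl9, a large-subunit protein near the stalk. Its ratios were -0.50, -0.047 and 0.49 in AcB61 and 0.16, 0.26 and 0.51 in AcB55 (lowest, median, highest). All 6 AcB55 arrays were above 0, and the AcB61 arrays spread to both sides. The AcB55 mean of 0.29 ± 0.13 did not pass (adjusted p = 0.0696, limma) and passed under 4 other ways of scaling or fitting (adjusted p 0.00359 to 0.0366). It also passed without AcB61 array 6 (0.0492) or 7 (0.0382), and over all alternatives the adjusted p ran from 0.00359 to 0.251. Rpl13 lay nearest to A/J in AcB55, at -0.064 ± 0.18 in AcB61 and 0.032 ± 0.10 in AcB55.

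**Figure D3:**
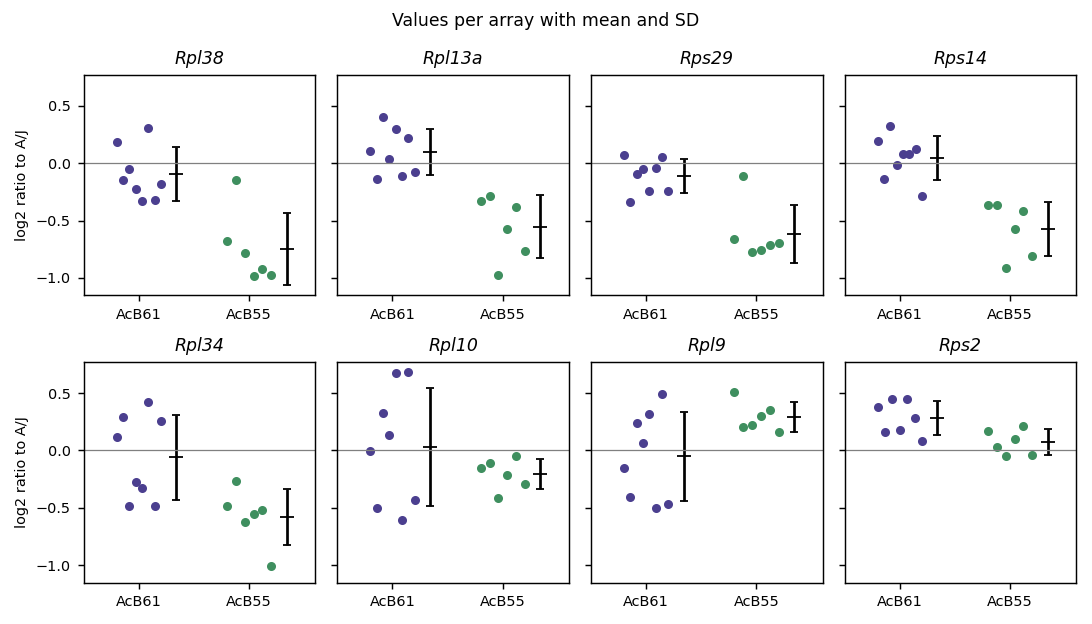
Log2 ratio to A/J of 8 genes on each array, with AcB61 (purple, 8 arrays, 7 for Rps2) left of AcB55 (green, 6 arrays). The black mark beside each group is the mean with the SD. The points of Rpl13a and Rps14 do not overlap, Rpl34, Rpl10 and Rpl9 spread widely in AcB61, and Rps2 lies above 0 on every AcB61 array.

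The small-subunit members were split into head and body with platform after their values were seen, and these groups were not tested against each other. Of 8 head genes, 7 were lower in AcB55 (all but Rps15) and 5 differed between the strains, with medians of -0.054 in AcB61 and -0.37 in AcB55. Of 14 genes of the body and platform, 9 were lower in AcB55, 1 was higher in AcB61 (Rps2) and 5 differed. Over all features, 10.9% were lower in AcB55, 10.5% were higher in AcB61 and 5.29% were higher in AcB61 than in AcB55. Among the head genes, the strain differences of Rps10 and Rps15 lost their call with a single probe (adjusted p 0.758 and 0.24, limma).

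Rps29, a small zinc-binding protein of the head, had ratios of -0.34, -0.074 and 0.067 in AcB61 and -0.78, -0.70 and -0.11 in AcB55 (lowest, median, highest). AcB55 array 2 stood within the AcB61 range, and the other AcB55 arrays lay below all AcB61 arrays. The means were -0.11 ± 0.15 in AcB61 and -0.62 ± 0.25 in AcB55, and the limma difference was 0.51 (SE 0.10, adjusted p = 0.0047). Rps20, also of the head, had ratios of -0.46, -0.22 and 0.30 in AcB61 and -1.09, -0.68 and -0.092 in AcB55, with AcB55 arrays 2 and 6 inside the AcB61 range and a difference of 0.46 (SE 0.14, adjusted p = 0.0384). That call was lost without any 1 of AcB61 arrays 1, 2 and 6 or AcB55 arrays 1, 3, 4, 5 and 6, at adjusted p of 0.0544 to 0.0957.

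Rps14 sits on the platform, and loss of a single copy of it in humans underlies the anaemia of the 5q- syndrome. Its ratios were -0.28, 0.078 and 0.32 in AcB61, against -0.91, -0.50 and -0.36 in AcB55 (lowest, median, highest). Every AcB61 array lay above every AcB55 array. The means were 0.045 ± 0.19 in AcB61 and -0.57 ± 0.24 in AcB55, and the limma difference of 0.62 (SE 0.11, adjusted p = 0.00213) had the smallest adjusted p of the members. It kept its call under every alternative that was run.

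Rps13, a protein of the body near the subunit interface, had the lowest Rps mean in both strains. Its ratios were -0.68, -0.14 and 0.34 in AcB61 and -0.79, -0.69 and -0.35 in AcB55 (lowest, median, highest). AcB61 arrays 2, 6 and 8 reached into the AcB55 range at -0.56, -0.59 and -0.68. The limma difference of 0.46 (SE 0.15, adjusted p = 0.0488) passed narrowly and did not pass when the arrays were centred on their medians (adjusted p = 0.0536), nor without any 1 of AcB61 arrays 1, 3, 4, 5 and 7 or AcB55 arrays 1, 3, 4, 5 and 6 (0.0714 to 0.107). The AcB61 mean passed without AcB61 array 7 (0.0476, against 0.0476 to 0.429 over the alternatives).

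Rps2, which lines the channel where the mRNA enters, was higher than A/J in AcB61. Its ratios were 0.081, 0.28 and 0.45 on the 7 AcB61 arrays with a value and -0.049, 0.067 and 0.22 in AcB55 (lowest, median, highest). Each of those 7 AcB61 arrays was above 0, and the AcB55 arrays straddled 0. The AcB61 mean was 0.28 ± 0.15 (n = 7, adjusted p = 0.00126, limma), and the difference from AcB55 of 0.21 (SE 0.080, adjusted p = 0.0945) did not pass. Rps23, which helps read the codon, was the small-subunit gene nearest to A/J in AcB61, at -0.0064 ± 0.30, against -0.30 ± 0.18 in AcB55 (adjusted p = 0.0269). That call was lost without AcB55 array 3, 5 or 6 (0.0683, 0.0923 and 0.105, against 0.00675 to 0.105 over the alternatives). Rps6, the target of the S6 kinases, had 0.044 ± 0.33 in AcB61 and -0.27 ± 0.12 in AcB55 and was not called in either.

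Among the measured members, 13 are genes in which mutations cause Diamond-Blackfan anaemia in humans. In AcB61, 1 of them was lower (Rpl5), and in AcB55, 10 were lower (Rpl5, Rpl27, Rpl35, Rpl35a, Rps7, Rps10, Rps19, Rps24, Rps28 and Rps29). Over all features, 13.3% were lower in AcB61 and 10.9% in AcB55. The AcB55 call of Rps10 was lost with a single probe (adjusted p = 0.99, limma). Rps19, the gene most often mutated in that disease, had means of -0.080 ± 0.28 in AcB61 (n = 7) and -0.51 ± 0.23 in AcB55, with a limma difference of 0.43 (SE 0.13, adjusted p = 0.0375). This list was drawn up after the values were seen. Its shares lie close to those of all members, 38 of 58 in AcB55.

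The near-zero AcB61 medians covered a wide spread of single genes between arrays. The median SD over arrays was 0.23 in AcB61 and 0.17 in AcB55 for the members, against 0.17 and 0.15 for all features. Over the 53 genes with a value on all arrays, pairs of AcB61 arrays correlated with a median r of -0.021, from -0.83 to 0.92 over 28 pairs, of which 9 were below -0.3. Pairs of AcB55 arrays correlated with a median of 0.62, from 0.41 to 0.87 over 15 pairs. Over all features the AcB61 pairs had a median r of 0.45, from -0.083 to 0.84. These r are descriptions over genes, which are not independent replicates, and all arrays share the A/J channel.

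The 9 opposed pairs joined AcB61 arrays 2, 6 and 8 with arrays 3, 5 and 7. Rpl10, a protein near the peptidyl site, shows the pattern at its widest, with -0.50, -0.61 and -0.43 on arrays 2, 6 and 8 and 0.32, 0.68 and 0.68 on arrays 3, 5 and 7. Rpl34 ran the other way, with 0.29, 0.42 and 0.26 on arrays 2, 6 and 8 and -0.49, -0.33 and -0.48 on arrays 3, 5 and 7. The labels give the 8 arrays no different treatment, so they were kept as 1 group, and these values are given array by array with no test. The labels mention a dye swap without saying for which arrays, so whether these sets of arrays match the dyes was not tested. The AcB61 mean of such a gene averages over arrays of opposite sign. Genes went opposite ways within an array, and the medians over genes on single AcB61 arrays ran from -0.12 to 0.11 (large subunit) and from -0.17 to 0.059 (small).

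**Figure D4:**
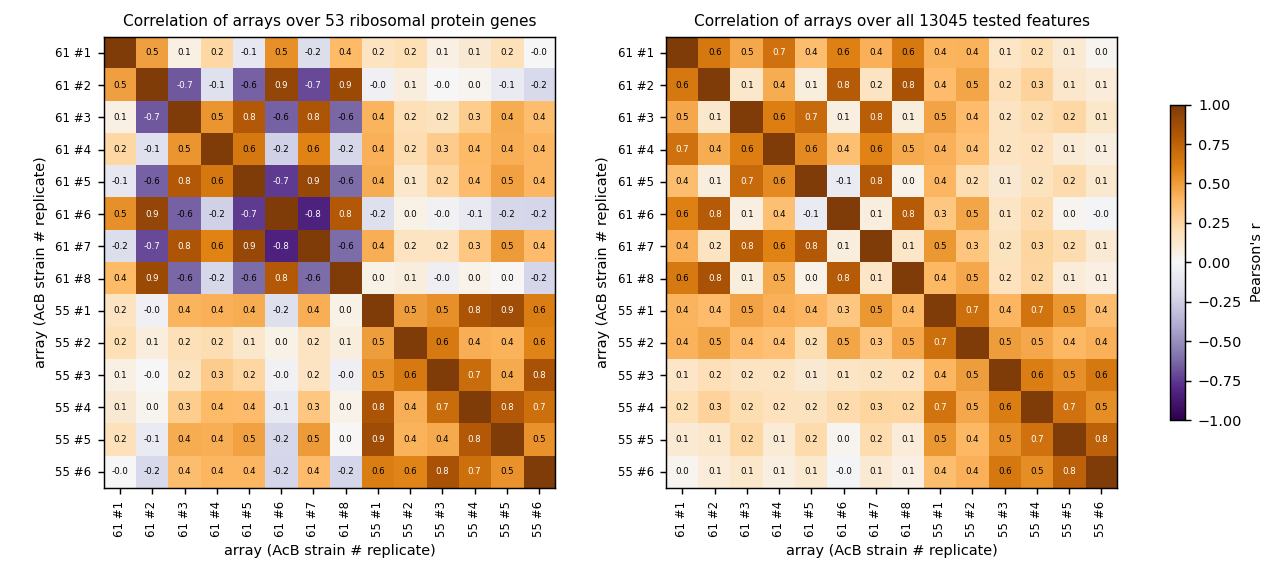
Pearson's r between each pair of arrays over 53 ribosomal protein genes (left) and over all 13045 tested features (right), with the 8 AcB61 arrays before the 6 AcB55 arrays and the value printed in each cell. On the left, AcB61 arrays 2, 6 and 8 are opposed to arrays 3, 5 and 7. On the right, no pair lies below -0.1.

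Spots of the same clone ran together over the AcB61 arrays, and different clones of 1 gene did not in some genes. Of the members, 27 had several spots, 69 in all. Among 32 pairs of spots that carry the same clone, the median r over the AcB61 arrays was 0.91, and 0 pairs were below 0. Among 32 pairs of different clones of 1 gene, from 15 genes, it was 0.39, and 13 pairs were below 0. Those 13 pairs came from Rpl23, Rpl23a, Rps10, Rps15 and Rpsa alone, with the most from the 6 spots of Rpsa. Pairs that share a spot are not independent. On the AcB55 arrays the medians were 0.85 for the same clone and 0.87 for different clones, and 0 pairs were below 0 in either.

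Rps15, a protein of the head that touches the transfer RNA, shows this. On AcB61 arrays 2, 6 and 8 its first clone had 0.33, 0.49 and 0.16, and its second had -0.35, -0.41 and -0.17. On arrays 3, 5 and 7 the first had -0.56, -0.52 and -0.61, and the second had 0.37, 1.0 and 1.0. Their average cancels much of this, so the AcB61 mean of 0.082 ± 0.14 has a small SD. In AcB55 the clones had means of -0.39 and 0.068, and the average of -0.16 ± 0.10 did not pass (adjusted p = 0.0572, limma). The call of a difference between strains, 0.24 (SE 0.076, adjusted p = 0.0452), was lost with a single probe for the gene (0.24) and without any 1 of AcB61 arrays 1, 4, 5, 6 and 7 or of the 6 AcB55 arrays (0.05 to 0.114).

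Rps10, another protein of the head, had clones that differed in AcB55. One clone had a mean of 0.072 in AcB61 and -0.0030 in AcB55. The other, on 2 spots, had -0.053 and -0.080 in AcB61 and -0.47 and -0.40 in AcB55. The averaged gene was lower in AcB55 at -0.29 ± 0.14 (adjusted p = 0.0011, limma), and the first clone alone gave an adjusted p of 0.99 (0.000476 to 0.99 over the alternatives). The difference between strains of 0.27 (SE 0.074, adjusted p = 0.0267) was lost without AcB61 array 1 or any 1 of AcB55 arrays 3 to 6 (0.0543 to 0.0732). With the first clone alone that difference was 0.075 (adjusted p = 0.758, limma), and without the arrays marked b the adjusted p was 0.137. Over the 27 members with several spots, the spots' means spanned a median of 0.047 in each strain, and in AcB55 the span was over 0.2 in Rps10 and Rps15 alone. Of all 100 spots, 95 had an AcB55 mean below 0. Ribosomal proteins have many near-identical pseudogene copies, and a cDNA spot can bind transcripts of such copies too, which makes single-gene values uncertain. The excluded retrocopy Rpl37rt had 0.024 ± 0.28 in AcB61 and -0.50 ± 0.30 in AcB55, with a limma difference of 0.52 (SE 0.14, adjusted p = 0.0224).

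**Figure D5:**
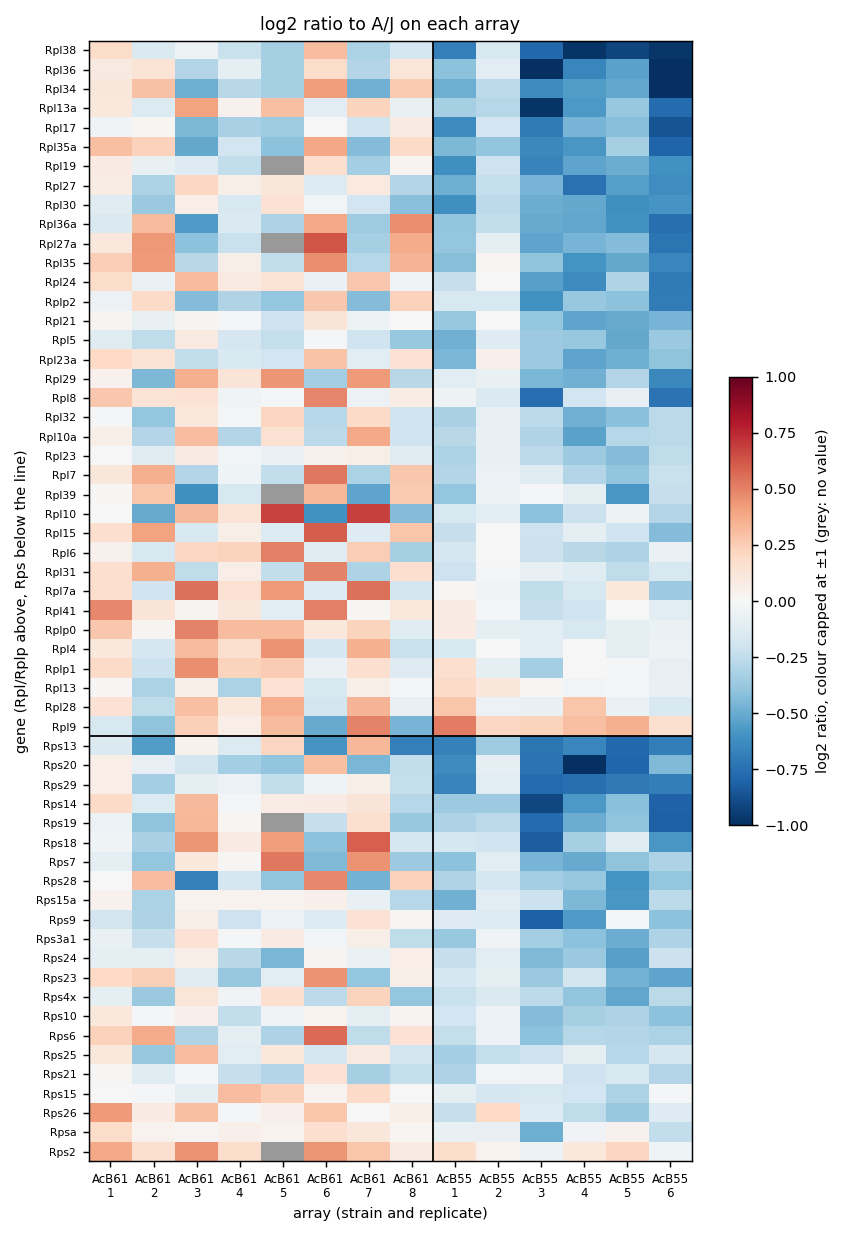
Log2 ratio to A/J of 58 genes (rows, Rpl and Rplp above the line and Rps below it, each ordered by the AcB55 mean) on 14 arrays (columns, AcB61 left of AcB55). Blue is lower and red higher than A/J, the colour is capped at 1 and -1, and grey has no value. The AcB55 columns are mostly blue, and the AcB61 columns show blocks of opposite colour on arrays 2, 6 and 8 and arrays 3, 5 and 7.

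The low AcB55 ratios were spread over the genome: the 58 members lie on 19 chromosomes and the 38 lower ones on 16. Chromosome 7 held most members, with 8, of which 7 were lower in AcB55.

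Of the ribosomal proteins named otherwise, only Fau, whose product is cut into a ubiquitin-like protein and Rps30, was measured. It was lower than A/J in both strains, at -0.25 ± 0.25 in AcB61 (adjusted p = 0.014) and -0.46 ± 0.15 in AcB55 (adjusted p = 0.000411, limma). Of 4 paralogs and genes with like names, Rsl1d1, a nucleolar protein, was higher in both, at 0.23 ± 0.15 and 0.17 ± 0.093, and the other 3 were not called in either strain.

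Genes that assemble ribosomes were called in both directions. Of 102 measured, 6 were lower and 5 higher in AcB61, and 9 were lower and 9 higher in AcB55, with medians of 0.035 and 0.0083. Between the strains 3 were lower and 4 higher in AcB61. The share called was below that of all features in each comparison and direction, where 13.3% were lower and 10.5% higher in AcB61, 10.9% and 9.77% in AcB55, and 6.98% and 5.29% between the strains, so these counts are no result about the list. Nop53, which helps process the large-subunit rRNA, had -0.14 ± 0.12 in AcB61 and -0.65 ± 0.24 in AcB55, with a limma difference of 0.51 (SE 0.094, adjusted p = 0.00294). Utp11 and Nol7, parts of the small-subunit processome, differed by 0.43 (SE 0.10, adjusted p = 0.013) and 0.31 (SE 0.087, adjusted p = 0.0288). Gnl3, a nucleolar GTPase of growing cells, went the other way, at 0.12 ± 0.14 in AcB61 and 0.38 ± 0.10 in AcB55, with a difference of -0.26 (SE 0.076, adjusted p = 0.0318). Taf1a, of the RNA polymerase I initiation factor, was lower in AcB61 at -0.22 ± 0.14, against 0.10 ± 0.21 in AcB55, a difference of -0.32 (SE 0.091, adjusted p = 0.029).

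Of 14 measured genes of mTORC1, the S6 kinases and the control of ribosomal protein mRNAs, 3 were higher in AcB61 and the rest were not called. In AcB55, 1 was lower and 1 higher. Over all features, 13.3% were lower and 10.5% higher in AcB61, and 10.9% and 9.77% in AcB55. With 14 genes, counts this small lie near the background, and the genes below are described singly. Rps6ka3, a kinase of the RSK family that acts on ribosomal protein S6, was higher in AcB61 at 0.71 ± 0.31 and stood at -0.026 ± 0.16 in AcB55, a difference of 0.74 (SE 0.13, adjusted p = 0.00208) in limma. Larp1, which binds the TOP run, had -0.13 ± 0.16 in AcB61 and 0.14 ± 0.074 in AcB55, neither called, and a called difference of -0.28 (SE 0.076, adjusted p = 0.0262). Mdm2, the ligase of p53 that free Rpl5 inhibits, had -0.048 ± 0.098 in AcB61 and was higher in AcB55 at 0.33 ± 0.17, with a limma difference of -0.38 (SE 0.077, adjusted p = 0.00505). The kinase Pdpk1 was lower in AcB55 at -0.19 ± 0.096, against -0.048 ± 0.15 in AcB61. Tsc1, an inhibitor of mTORC1, and the cap-binding factor Eif4e were higher in AcB61 at 0.23 ± 0.16 and 0.18 ± 0.16.

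Translation factors whose mRNAs are known to carry the same TOP run were called in both directions in AcB55. Of 12 measured, 4 were higher in AcB61 and the rest were not called, and 5 were lower and 3 higher in AcB55. Over all features, 13.3% were lower and 10.5% higher in AcB61, and 10.9% and 9.77% in AcB55. Of the subunits of the initiation factor eIF3, Eif3f, Eif3h, Eif3k and Eif3e were lower in AcB55, and Eif3a was higher in both strains. Eif3l was higher in AcB61 at 0.21 ± 0.28 and was not called in AcB55, at 0.16 ± 0.14. Eif3f had -0.082 ± 0.17 in AcB61 and -0.50 ± 0.20 in AcB55, with a limma difference of 0.42 (SE 0.094, adjusted p = 0.00939), and Eif3k and Eif3h differed by 0.42 (SE 0.092, adjusted p = 0.00737) and 0.33 (SE 0.097, adjusted p = 0.037). Eef1b2, an exchange factor of elongation, was lower in AcB55 at -0.43 ± 0.19, against 0.026 ± 0.43 in AcB61. Pabpc1, the poly(A)-binding protein, was higher in both strains, at 0.49 ± 0.30 in AcB61 and 0.69 ± 0.11 in AcB55. Eif2s3x, a subunit of the initiation factor eIF2, was also higher in both, at 0.25 ± 0.21 in AcB61 and 0.53 ± 0.16 in AcB55.

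Markers of cell types are given beside these results. For comparison, 13.3% of all features were called lower and 10.5% higher in AcB61, and 10.9% and 9.77% in AcB55. Of 15 red cell precursor markers, 12 were higher in AcB61 and the rest not called, and in AcB55 12 were higher and 1 lower (Ermap), and the mean of the list per array was 0.46 to 0.72 in AcB61 and 0.36 to 0.67 in AcB55. Between the strains, Alas2, an enzyme that red cell precursors need to make haem, was higher in AcB61 than in AcB55, with a limma difference of 0.51 (SE 0.13, adjusted p = 0.0193), and so was the red cell membrane protein Ermap, by 0.25 (SE 0.076, adjusted p = 0.0381). The other 13 were not called between the strains. Of 24 markers of dividing cells, 22 were higher in AcB61 and 20 in AcB55, with means per array of 0.40 to 0.76 and 0.51 to 0.84. Mki67, a marker of cycling cells, was higher still in AcB55, at 0.82 ± 0.20 in AcB61 and 1.83 ± 0.25 in AcB55, with a limma difference of -1.01 (SE 0.11, adjusted p = 4.33e-05). Mcm3 was also lower in AcB61 than in AcB55, and the other 22 were not called between the strains. Over the 24 markers the median difference was -0.011, with 13 below 0 and 11 above. Of 3 B and plasma cell markers, Blnk and Xbp1 were lower in both strains and lower in AcB55 than in AcB61, with Blnk at -0.58 ± 0.20 in AcB61 and -1.06 ± 0.30 in AcB55, with a limma difference of 0.49 (SE 0.13, adjusted p = 0.0243). The T cell gene Satb1 had -0.025 ± 0.12 in AcB61 and was lower in AcB55 at -0.18 ± 0.14. Of 9 macrophage markers, 3 were lower and 2 higher in AcB61, and 5 lower and 1 higher in AcB55, and of 4 granulocyte markers 1 was lower and 2 higher in AcB61, and 1 was higher in AcB55 and the rest were not called. With lists this short, 1 or 2 calls in a direction are no result about the list. The part of these cells in the ribosomal protein ratios was not tested.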

How the data were processed

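Spleen RNA was measured on 14 cDNA arrays with 2 channels, and images were quantified with QuantArray 3.0, per the labels' protocols. The deposited table holds a log2 ratio per spot and array, as its signed values around 0 were read. The log base, dyes, centring and normalization are not given in the sources used here, although the labels name a dye swap. Gene names came from the annotation of the array. Probes of 1 gene were averaged on each array, a feature needed values on at least 3 arrays of each strain, and no centring was added.

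R 4.3.3 with limma 3.58.1 (lmFit on all 14 arrays with 1 mean for each strain, then eBayes) tested each strain mean against 0 and their difference, with Benjamini-Hochberg adjustment over 13045 features, and was tested on simulated data. Figures used Python 3.11.15 and matplotlib 3.10.9. The members and lists were chosen with earlier results of these data known. Members picked by rule were the 3 lowest called of each subunit, called members of opposite direction, the member nearest 0 and the 3 largest differences. Of each list the rule picked up to 4 called genes with the largest change per comparison. Not all of these list genes are described, and those that are have means with SD or differences. Mean differences carry the SE of limma.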

Additional observations from a re-analysis of the deposited data

Results flagged for a closer look

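Of 40 groups of arrays checked over the named members, 5 held an array whose distance from its nearest neighbour was large against the range of the group, by Dixon's criterion, which chance meets in about 1 in 20 groups. On AcB55 array 2, Rpl38 (-0.149), Rps13 (-0.352), Rps29 (-0.111) and Rpl23a (0.0497) lay above the other 5 arrays, and on AcB55 array 1, Rplp0 (0.0806) did. AcB55 array 2 also had the smallest subunit medians in size and the highest mean of granulocyte markers (1.31), whose part was not tested.

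The difference between the strains passed in limma for 27 members and for 18 other genes, chosen by the naming rule except the retrocopy Rpl37rt. AcB61 was higher than AcB55 on the log2 scale in all 27 members. The differences were 0.654 for Rpl38, 0.645 for Rpl13a, 0.568 for Rpl36, 0.520 for Rpl27a, 0.520 for Rpl35, 0.516 for Rpl34, 0.507 for Rpl24, 0.495 for Rpl27 and 0.481 for Rpl35a. They were 0.454 for Rpl8, 0.448 for Rpl19, 0.391 for Rpl17, 0.380 for Rpl30, 0.375 for Rpl23a, 0.355 for Rpl21, 0.277 for Rplp0 and 0.266 for Rpl23. Among Rps genes the differences were 0.618 for Rps14, 0.507 for Rps29, 0.463 for Rps20, 0.459 for Rps13, 0.431 for Rps19, 0.301 for Rps26, 0.292 for Rps3a1, 0.290 for Rps15a, 0.268 for Rps10 and 0.242 for Rps15. Outside the members they were 0.737 for Rps6ka3, 0.520 for Rpl37rt, 0.506 for Nop53, 0.428 for Utp11, 0.425 for Eif3k, 0.416 for Eif3f, 0.326 for Eif3h and 0.308 for Nol7. Among markers of cell types they were 0.515 for Xbp1, 0.512 for Alas2, 0.488 for Blnk and 0.252 for Ermap. AcB61 was below AcB55 for Mki67 (-1.01), Mcm3 (-0.410), Mdm2 (-0.381), Taf1a (-0.322), Larp1 (-0.276) and Gnl3 (-0.264).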

How the results depend on the processing

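Of 444 recomputed counts and medians, 404 stayed within 1.5 times the reported count or within the spread, and of 1255 values of named genes 1157 kept their side of the threshold, 82 lost the call and 16 gained it. The sign turned in 15 of the 1255, 14 of them AcB61 means near 0 (Rpl23a, Rps23, Rpl9, Rps10 and Rps15) and 1 the AcB55 mean of Rpl13, and 0 of these were called in either setting. With a single probe the AcB61 mean was 0.072 for Rps10 and -0.101 for Rps15, against -0.021 and 0.082. Higher Rpl and Rplp members in AcB55 were 1 (Rpl9) instead of 0 with quantile normalization, equal spread, array weights or only the strain's own arrays. With array weights, AcB61 had 2 lower and 2 higher Rpl and Rplp and 2 higher Rps members, and 1 Rpl and Rplp member was lower in AcB61 than in AcB55. Lower Rpl and Rplp members in AcB61 were 0 with the strain's own arrays and 0 without the arrays marked b (AcB55 3 and 4). Without those arrays, 9 Rps members were lower in AcB55, and 4 Rpl and Rplp and 2 Rps members differed between strains, against 16, 17 and 10. Higher Rps members in AcB61 were 0 among features with a value on all arrays, since Rps2 lacks 1. Without AcB55 arrays 1 and 2 the Rpl and Rplp difference had a median of 0.390, against 0.309.

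Leaving out 1 array at a time, lower members in AcB61 were 0 to 1 Rpl and Rplp and 0 to 1 Rps, and higher ones 1 to 2 and 1 to 1. In AcB55, 18 to 22 Rpl and Rplp and 11 to 18 Rps members were lower, and 0 to 1 and 0 to 0 higher. Between strains 9 to 18 and 2 to 10 were higher in AcB61, and 0 to 1 and 0 to 0 lower, while 2.55% to 5.94% of all features were higher. Medians of Rpl and Rplp ran from -0.020 to 0.020 in AcB61, from -0.381 to -0.304 in AcB55 and from 0.282 to 0.353 between strains, and of Rps from -0.053 to -0.021, from -0.374 to -0.290 and from 0.263 to 0.338.

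No paired analysis was possible because the labels give the arrays no shared replicate numbers. Spot intensity was not used here, so signal over background is unknown. The log base, the dye of each array and the normalization are not given in the sources used here, and direction rests on the order of the channels in the labels.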
